A study of Mus musculus with 5 samples.

Results

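Dnajc12 and 6 genes of tetrahydrobiopterin supply and tyrosine breakdown (Gch1, Qdpr, Tat, Hpd, Hgd and Fah) were described across the hepatocyte clusters, other cell types and libraries of the liver tables of a mouse single-cell RNA-seq study. They are 7 of the 22540 genes listed in those tables. Dnajc12 was chosen because it differed between these libraries and the other genes because they belong to the same pathway, so the ratios of Dnajc12 between libraries describe how it was chosen and have no test. The study, whose title concerns liver epsins and dyslipidemia, sequenced cells of liver and aorta with a 10x Genomics droplet kit. In this assay a random tag at the 3′ end of each captured molecule, the UMI (unique molecular identifier), lets molecules be counted once. The 3 liver libraries are 1 labelled DKO with ApoE in its title, 1 labelled WT with ApoE in its title, and 1 labelled WT with no background named. The labels spell out neither DKO nor the ApoE allele, name no strain, age, promoter or Cre line, and mention 3 mice without tying them to libraries.

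DNAJC12 is a J-domain co-chaperone that hands client proteins to HSP70, and its best known clients are the hydroxylases of aromatic amino acids. Those hydroxylases use tetrahydrobiopterin as a cofactor, which GCH1 starts to make from GTP and QDPR regenerates after each round. Tyrosine is then broken down, chiefly in hepatocytes, by TAT, HPD, HGD and FAH in that order, ending in fumarate and acetoacetate.

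The hepatocytes of each library were summed, and a level is given as CPM, the UMIs of a gene scaled to a total of 1000000 UMIs in the cells summed. The ApoE library labelled DKO gave 3213 hepatocytes with 9161442 UMIs, the ApoE library labelled WT 4015 with 8769666, and the WT library without a named background 261 with 900652. All 10 hepatocyte marker genes were detected in each, at a summed level of 92019 CPM, 110158 CPM and 114253 CPM. Of the 9 Kupffer cell markers, 3 were detected in the hepatocytes of the library labelled DKO and all 9 in the other libraries, with sums of 0.655, 6.27 and 202 CPM in the same order. Cholangiocyte markers summed to 8.84, 4.22 and 239 CPM, erythroid markers to 118, 14.0 and 9.99 CPM, and pancreatic acinar markers to 15.6, 97.6 and 5.55 CPM; their part in the results was not tested. The median mitochondrial share of a hepatocyte's UMIs was 7.09%, 3.01% and 1.53%. The epsin genes were not lower in the hepatocytes labelled DKO: Epn1 stood at 71.2 CPM against 58.7 CPM in the ApoE library labelled WT, and Epn2 at 8.62 against 7.64 CPM. Apoe was detected in both ApoE libraries, at 32.7 and 36.3 CPM, and at 68.8 CPM in the other. The labels do not say which part of a gene was altered, and 3′ tags from outside that part would miss it, so the libraries are called by their labels. With 1 library per group nothing could be checked against replicates, and the intervals, at 95%, cover counting error only.

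Gene models place Dnajc12 at chr10:63382443-63410576 on the plus strand of GRCm38, and its nearest coding neighbour, Sirt1 on the minus strand, begins 739 bases away. Gch1 lies at chr14:47153895-47189413 (minus), Qdpr at chr5:45434021-45450236 (minus), Tat at chr8:109990437-109999803 (plus), Hpd at chr5:123171807-123182727 (minus), Hgd at chr16:37580153-37632020 (plus) and Fah at chr7:84585159-84606722 (minus). Hpd lies within Psmd9, a coding gene of the opposite strand, and also overlaps a long noncoding gene of its own strand. Qdpr and Hgd each overlap an annotated antisense gene, and Gch1 overlaps 2 processed pseudogenes. The labels do not say whether reads were counted by strand, so the counts of Hpd, Qdpr, Hgd and Gch1 may hold reads of those partners. RefSeq promoters of build GRCm38.p6 were matched for 6 of the 7 genes, all but Dnajc12. The 250 bases before the start are shown for Tat and Hgd, which were both higher in the ApoE library labelled WT than in the WT library without a named background, and for Gch1, whose levels in those libraries had overlapping intervals. Capitals mark matches on either strand to CCAAT (the CCAAT box), to the TATA box core, which is TATAAA, and to the half-site of the cAMP response element, which is TGACG, and the marked matches do not overlap.
Tat (chr8:109990186-109990435, plus strand): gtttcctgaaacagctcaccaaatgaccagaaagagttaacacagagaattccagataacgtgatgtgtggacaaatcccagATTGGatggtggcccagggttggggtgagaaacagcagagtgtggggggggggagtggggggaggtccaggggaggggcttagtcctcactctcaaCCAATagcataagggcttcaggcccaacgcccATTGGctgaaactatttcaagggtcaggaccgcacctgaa
Hgd (chr16:37579903-37580152, plus strand): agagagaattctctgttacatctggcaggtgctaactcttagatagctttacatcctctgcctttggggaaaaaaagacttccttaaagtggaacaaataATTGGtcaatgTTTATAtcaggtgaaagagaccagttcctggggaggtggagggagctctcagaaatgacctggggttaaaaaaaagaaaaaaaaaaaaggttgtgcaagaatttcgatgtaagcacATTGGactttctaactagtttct
Gch1 (chr14:47189414-47189663, minus strand): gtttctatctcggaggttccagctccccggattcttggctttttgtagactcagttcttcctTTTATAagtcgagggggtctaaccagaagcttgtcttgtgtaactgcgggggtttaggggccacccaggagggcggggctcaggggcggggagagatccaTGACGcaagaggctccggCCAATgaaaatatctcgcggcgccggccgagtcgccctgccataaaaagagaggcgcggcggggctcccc
CCAAT occurred 3 times in the Tat window, 2 times in that of Hgd and once in that of Gch1, and 33.8% of 32851 mouse promoter windows of this length hold it. TATAAA occurred in the windows of Hgd and Gch1 (12.4% of all windows) and TGACG in that of Gch1 (17.8%). The windows differ in CpG content, with 3 CpG in Tat, 1 in Hgd and 17 in Gch1, against a median of 6 over all windows. Of the other matched genes, Qdpr has 21 CpG, Fah 16 and Hpd 7. The Qdpr window holds CCAAT 2 times and neither of the other motifs. The windows of Hpd and Fah hold none of the motifs, although both genes were also higher in the ApoE library labelled WT. The motif counts thus do not follow the levels in those libraries. These are matches of letters, not binding sites.

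Dnajc12 was higher in the hepatocytes labelled DKO than in those labelled WT on the ApoE background. It had 1353 UMIs there, a level of 147.7 CPM (interval 139.9 to 155.8), against 342 UMIs and 39.0 CPM (35.0 to 43.4), and the intervals do not overlap. The WT library without a named background stood between them, with 72 UMIs and 79.9 CPM (62.5 to 100.7). The DKO over WT ratio on the ApoE background was 3.79 (3.36 to 4.28). Of the 7 genes, Dnajc12 alone passed a ratio of 1.5 in either direction; the share of all 8282 genes with at least 100 summed UMIs that did so was 4.97%. Since Dnajc12 was chosen on this contrast, nothing is read from that count. The other 6 genes had ratios from 0.738 to 1.16. The median log2 ratio of the 7 genes was 0.02, and that of all 8282 genes was 0.00. Sirt1, which begins next to Dnajc12 and encodes a deacetylase, had 107 and 133 UMIs and a ratio of 0.770 (0.591 to 1.001).

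**Figure D1:**
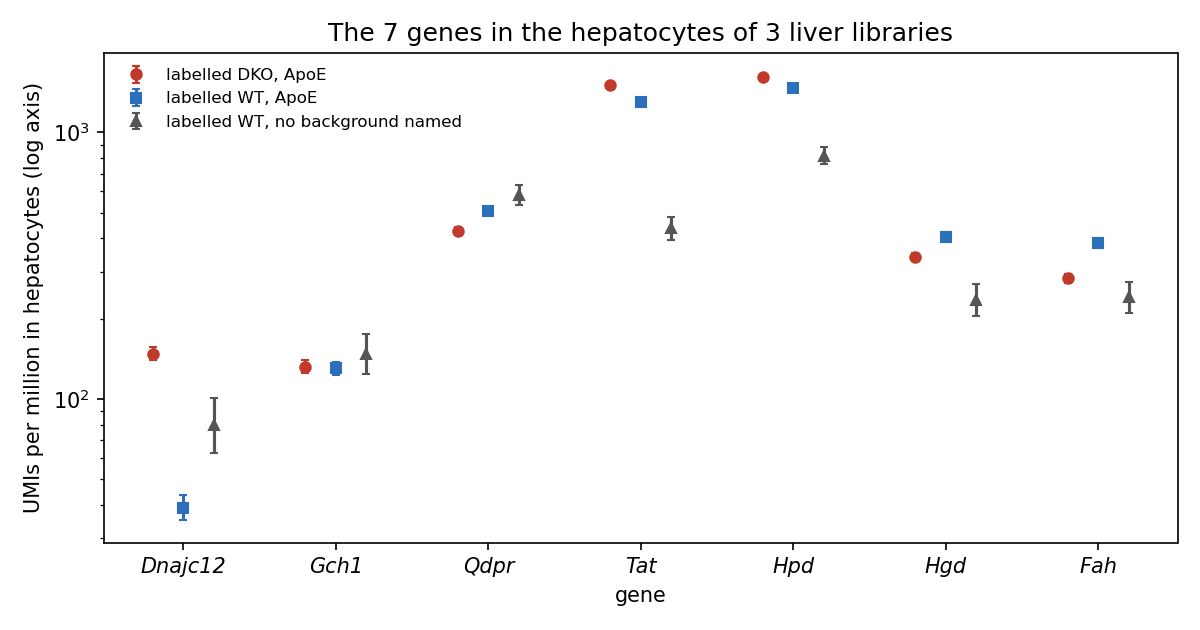
Level of each gene in the summed hepatocytes of 3 liver libraries, in CPM on a log axis; bars are exact Poisson 95% intervals, many of them smaller than the symbol. Dnajc12 is highest in the library labelled DKO (147.7 CPM) and lowest in the ApoE library labelled WT (39.0 CPM), while Tat and Hpd are lowest in the WT library without a named background.

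Within the library labelled DKO, Dnajc12 ranged from 50.4 CPM in cluster 2 to 263 CPM in cluster 5. Cluster 5 is led by Glul, Slc1a2 and Oat, genes of hepatocytes next to the central vein. Its interval (239 to 288) lay above that of cluster 8 (177 CPM, 158 to 197), which is led by Esrrg, Slc25a21 and Slc16a10. Clusters 3, 4, 1 and 13 followed at 151, 133, 131 and 130 CPM and had overlapping intervals, each of which also overlapped that of cluster 8. Cluster 7, led by Cyp2f2 and other genes of hepatocytes near the portal vein, stood at 102 CPM (89.8 to 116). Clusters 0 and 6 had 94.7 and 77.4 CPM, and their intervals overlapped that of cluster 7. The lowest, cluster 2 (36.9 to 67.2, overlapping cluster 6), has Cmss1 and Gm42418 among its leading genes and had a median mitochondrial share of 0.382%, against 13.3% in cluster 5.

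The ApoE library labelled WT also had its highest Dnajc12 level in cluster 5, at 77.9 CPM (63.5 to 94.6). Cluster 8 came next at 54.5 CPM (42.6 to 68.7), followed by cluster 7 at 40.2 CPM (29.3 to 53.8), and the intervals of neighbours in this order overlap. The other 6 clusters with at least 50 cells lay between 20.8 CPM in cluster 1 and 29.4 CPM in cluster 6, and their intervals overlap too. In cluster 13, with 44 cells, no Dnajc12 UMI was counted. The WT library without a named background was clustered by the authors in a table of its own, so its cluster numbers do not correspond. There, Dnajc12 was at 17.6 CPM (6.47 to 38.4) in cluster 3 and at 124 CPM (88.8 to 169) in cluster 4, which is led by mitochondrial genes. The median mitochondrial share was 0.367% in that cluster 3 and 13.8% in that cluster 4. Its clusters 8 and 12 are part of the hepatocyte sum but hold 41 and 29 cells. Cluster 12 is the one led by Glul there, yet the highest Dnajc12 level of the 4 clusters was that of cluster 4. With so few cells in cluster 12, nothing is read from that order.

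**Figure D2:**
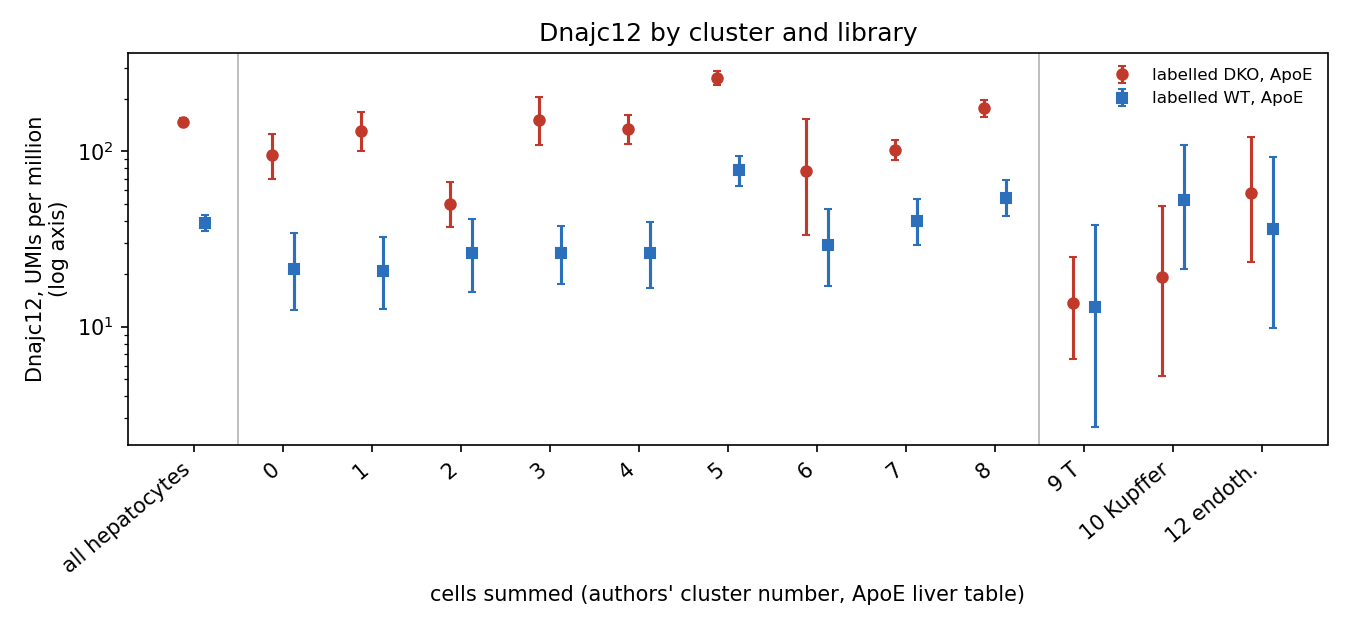
Dnajc12 in CPM, on a log axis, for all hepatocytes, hepatocyte clusters 0 to 8 and the T cell, Kupffer cell and endothelial clusters of the ApoE libraries; bars are exact Poisson 95% intervals. The DKO points lie above the WT points in each of the 9 hepatocyte clusters (263 against 77.9 CPM in cluster 5), and the intervals overlap in the other 3 clusters.

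Dnajc12 was higher in the library labelled DKO in each of the 9 hepatocyte clusters compared. The ratio ran from 1.93 (1.11 to 3.48) in cluster 2 to 6.28 (3.71 to 11.1) in cluster 1, and only in cluster 6, with 8 and 17 UMIs, did its interval include 1 (0.983 to 6.44). In cluster 5 the ratio was 3.37 (2.71 to 4.22), from 454 and 102 UMIs. In clusters 7 and 8 it was 2.54 (1.84 to 3.57) and 3.24 (2.50 to 4.25). Dnajc12 thus passed 1.5 times in 9 of 9 clusters, on a contrast that had been used to choose it, and it had at least 100 summed UMIs in clusters 4, 5, 7 and 8. The share of all genes with at least 100 summed UMIs that were at least 1.5 times higher was 5.94% in cluster 0, 8.1% in cluster 1, 4.49% in cluster 2, 3.45% in cluster 3, 4.16% in cluster 4, 4.42% in cluster 5, 3.36% in cluster 6, 3.12% in cluster 7 and 1.84% in cluster 8.

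The mitochondrial share of a cell moved with both the library and Dnajc12, and its part in the result was not tested. Among hepatocytes below 1%, Dnajc12 was at 54.2 CPM in the library labelled DKO and 27.3 CPM in its ApoE counterpart labelled WT, a ratio of 1.99 (1.17 to 3.49). Between 1 and 5% the ratio was 4.44 (3.36 to 5.87), and between 5 and 10% it was 4.82 (3.35 to 7.12). Between 10 and 20% it was 2.88 (2.46 to 3.38), from 165 and 57.4 CPM. Dnajc12 was thus higher in the library labelled DKO in all 4 ranges, and within each ApoE library the cells at 10 to 20% had a higher level than those below 1%. The WT library without a named background had 39.7 CPM below 1% and 115 CPM at 10 to 20%. Between those it had 49.9 and 189 CPM, from 4 and 10 UMIs. By depth, the DKO over WT ratio was 2.72 (1.29 to 6.59) in cells under 1000 UMIs, 4.50 (3.61 to 5.63) at 1000 to 3000 UMIs and 3.00 (2.58 to 3.50) in deeper cells.

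**Figure D3:**
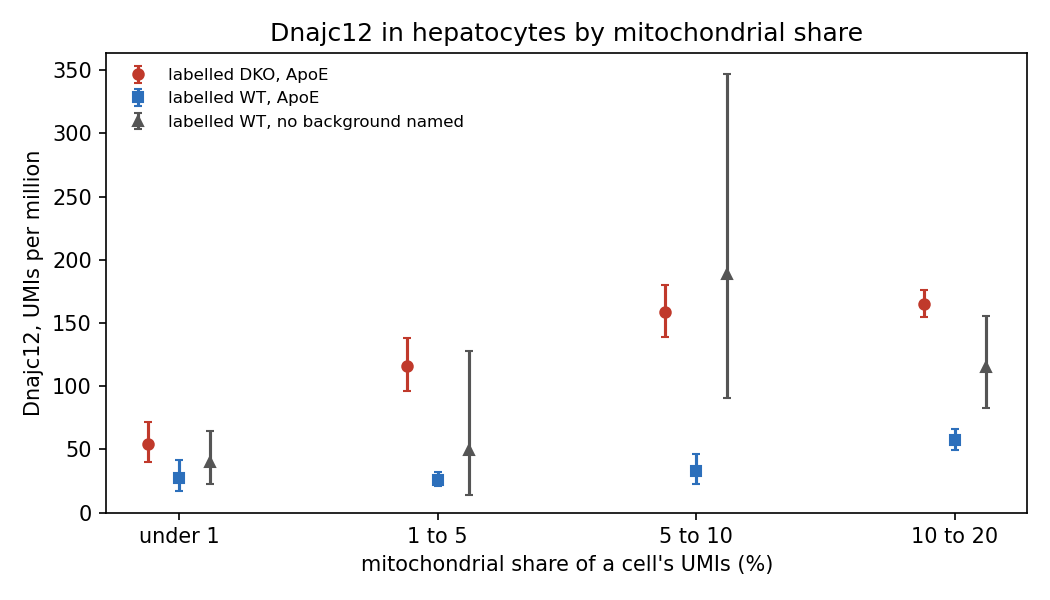
Dnajc12 level in hepatocytes, in CPM, by the mitochondrial share of a cell's UMIs, in 3 libraries; bars are exact Poisson 95% intervals. The library labelled DKO lies above the ApoE library labelled WT in all 4 ranges (54.2 against 27.3 CPM below 1%), and the wide bars of the third library rest on as few as 4 UMIs.

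A Dnajc12 UMI was found in 838 of 3213 hepatocytes of the library labelled DKO, or 26.1% (exact Clopper-Pearson interval 24.6 to 27.6), in 7.70% (6.89 to 8.56) of those of the ApoE library labelled WT and in 18.8% (14.2 to 24.0) of those of the third. Thinned to 1000 UMIs per cell, which left out 925, 301 and 16 shallower cells, the shares were 12.9%, 2.96% and 8.57%, in the same order as the levels. T cells were taken for the background, although they held Alb, the gene for albumin, at 12130 CPM (labelled DKO) and 25191 CPM (labelled WT). A UMI was found in 2.59% of 386 T cells labelled DKO and in 3.49% of 86 labelled WT, and in 1.38% and 2.35% after thinning. Median depth was 1887 and 2685 UMIs in these T cells and 1753 and 1536 in the hepatocytes. The thinned share of the hepatocytes labelled WT thus lay close to that of the T cells labelled WT, which rests on 2 cells. Among cells with at least 2000 UMIs, thinned to 2000, these shares were 8.34% (6.84 to 10.0) and 1.54% (0.0389 to 8.28). Over all cells, the level was 39.0 CPM in the hepatocytes labelled WT and 13.0 CPM, from 3 UMIs, in the T cells labelled WT. In the same library the level was 52.9 CPM, from 7 UMIs, in the Kupffer cell cluster and 36.2 CPM, from 4 UMIs, in the endothelial cluster. The hepatocyte level labelled WT thus did not lie above that of every other cluster. At 1000 UMIs the share in cluster 5 was 10.5% (7.25 to 14.6) in the library labelled WT and 25.1% (20.9 to 29.7) in that labelled DKO. In the Kupffer cell cluster the thinned share was 3.17% (0.387 to 11.002) in the library labelled DKO and 5.97% (1.65 to 14.6) in that labelled WT, and in the endothelial cluster it was 5.56% (0.680 to 18.7) and 3.85% (0.469 to 13.2). The share of 2.96% in all hepatocytes labelled WT on the ApoE background lay within the intervals of all 3 of these other clusters labelled WT (0.286 to 8.24 in T cells). The highest count was 8 in a hepatocyte, 1 in a T cell or a cell of the Kupffer cell cluster, and 4 in an endothelial cell labelled DKO.

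Gch1, which catalyses the rate-limiting step of tetrahydrobiopterin synthesis, had nearly the same level in the ApoE libraries. It had 1207 UMIs and 131.7 CPM in the hepatocytes labelled DKO against 1141 UMIs and 130.1 CPM in those labelled WT. The ratio was 1.01 (0.933 to 1.10). It fell on either side of 1 across the 9 clusters, from 0.825 in cluster 1 to 1.26 (1.02 to 1.55) in cluster 7, the only one whose interval left out 1. Among the hepatocyte clusters of the library labelled DKO its lowest level, 102 CPM from 177 UMIs, was in cluster 5, where Dnajc12 was highest. In the ApoE library labelled WT its lowest level was 115 CPM in cluster 8, beside 117 CPM in cluster 5.

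Qdpr, the reductase that regenerates the cofactor, had 3920 UMIs (427.9 CPM) in the hepatocytes labelled DKO and 4424 (504.5 CPM) in those labelled WT. The ratio was 0.848 (0.812 to 0.886), and 1.03 among cells with a mitochondrial share below 1%. Its direction differed between clusters: 0.725 (0.661 to 0.796) in cluster 5, 0.710 (0.643 to 0.785) in cluster 7 and 0.692 (0.621 to 0.772) in cluster 8, but 1.25 (1.05 to 1.48) in cluster 1. Cluster 5 had the highest Qdpr level in both ApoE libraries, 517 CPM in that labelled DKO and 713 CPM in that labelled WT. Among the 6 other genes of cofactor synthesis and recycling listed, all with at least 100 UMIs, none passed 1.5 times. Pcbd1, which dehydrates the used cofactor, stood at 389 and 492 CPM, a ratio of 0.792 (0.757 to 0.828). Gchfr, which encodes the feedback regulator of GCH1, had a ratio of 0.804 (0.769 to 0.840). Spr, which completes synthesis, had one of 0.903 (0.828 to 0.985). The ratio of 5 of these 6 genes was below 1 and their median log2 ratio was -0.12, against 0.00 for all 8282 genes. Alb, the gene for albumin, had a ratio of 0.851 (log2 -0.23) in the same hepatocytes. Whether Qdpr and these genes moved with it was not tested.

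Tat, the aminotransferase that commits tyrosine to breakdown, had 13828 UMIs (1509 CPM) in the hepatocytes labelled DKO and 11390 (1299 CPM) in those labelled WT. The ratio was 1.16 (1.13 to 1.19). It was above 1 with its interval in 7 of the 9 clusters, up to 1.43 (1.30 to 1.58) in cluster 0, and below 1 in cluster 3, at 0.854 (0.760 to 0.958). Hpd, the dioxygenase that forms homogentisate, had 14760 and 12828 UMIs and levels of 1611 and 1463 CPM, a ratio of 1.10 (1.08 to 1.13). Its ratio was above 1 in all 9 clusters, from 1.03 to 1.28, with its interval in 5 of them, and in both libraries its level was highest in cluster 5 (1979 and 1738 CPM) and lowest in cluster 7 (1284 and 1251 CPM).

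Hgd and Fah were lower in the library labelled DKO. In the same hepatocytes Alb had a ratio of 0.851 (0.848 to 0.855), while Tat and Hpd were above 1. Whether Hgd and Fah moved with Alb was not tested. Hgd, which opens the ring of homogentisate, had 3109 and 3545 UMIs and levels of 339.4 and 404.2 CPM, a ratio of 0.840 (0.800 to 0.881). Fah, which splits fumarylacetoacetate, had 2597 and 3368 UMIs and levels of 283.5 and 384.1 CPM, a ratio of 0.738 (0.701 to 0.777). Hgd was below 1 in all 9 clusters, from 0.741 to 0.948, with its interval in 5 of them. Fah was also below 1 in all 9, with its interval in 6, from 0.639 (0.528 to 0.771) in cluster 0 to 0.889 in cluster 5, and cluster 0 was the only one of them in which it passed 1.5 times, where 8.03% of all genes were at least 1.5 times lower. Both libraries had their highest Fah level in cluster 2 (416 and 557 CPM), where Dnajc12 was lowest in the library labelled DKO. Of the 6 other genes of this pathway listed, 4 had at least 100 UMIs and none passed 1.5 times. Gstz1, which isomerises maleylacetoacetate between HGD and FAH, had a ratio of 1.10 (1.05 to 1.16). The aspartate aminotransferases Got1 and Got2 had ratios of 0.952 and 1.08, and Fahd1 one of 0.846.

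**Figure D4:**
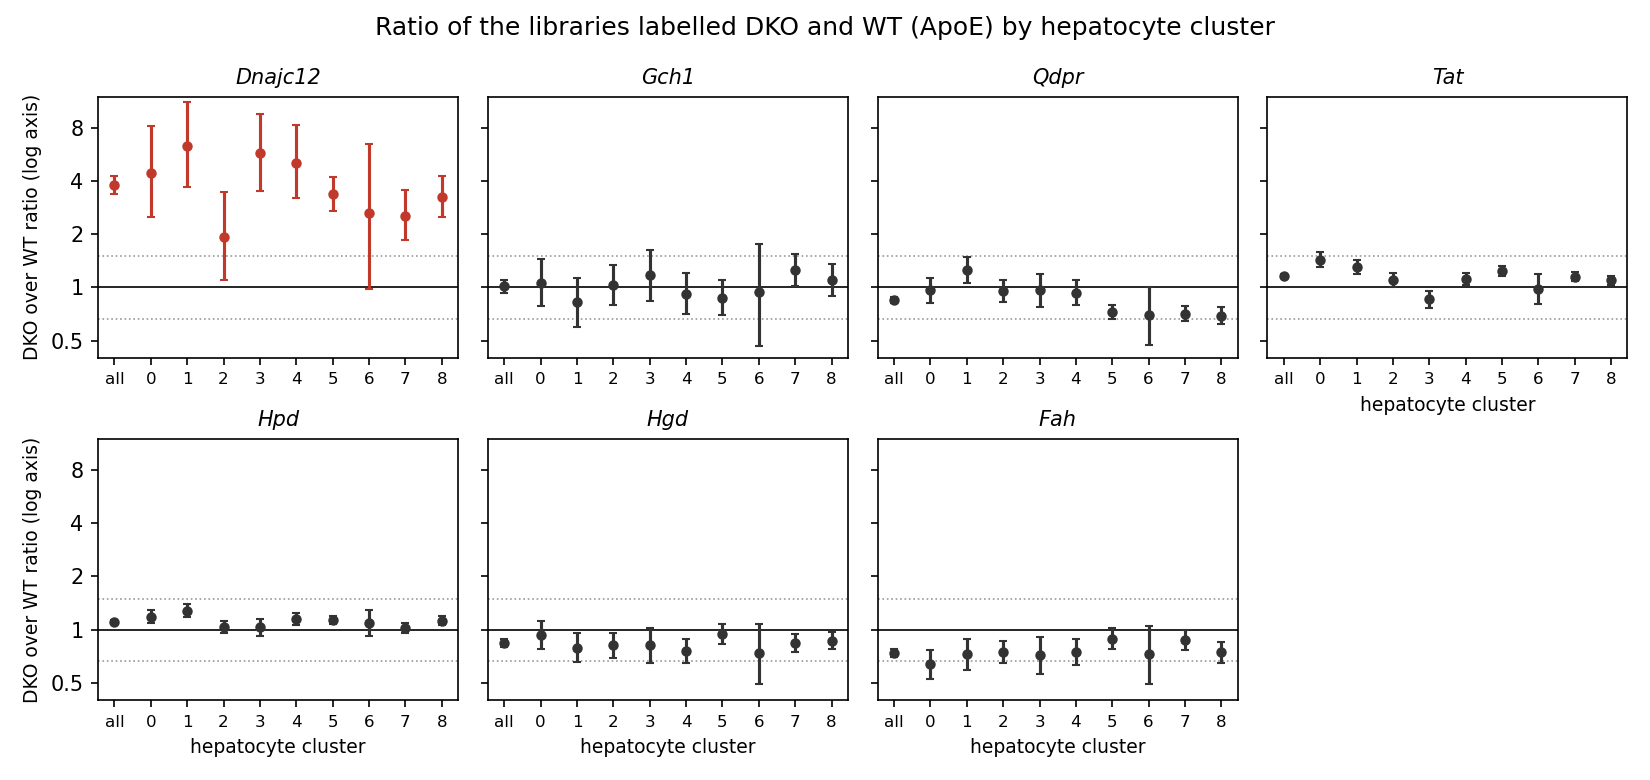
Ratio of the level in the library labelled DKO to that in the ApoE library labelled WT, on a log axis, for each gene in all hepatocytes and in clusters 0 to 8; bars are 95% intervals from counts and dotted lines mark 1.5 times in either direction. Dnajc12 lies above the upper line in every cluster (1.93 to 6.28), and of the other genes Fah in cluster 0 (0.639) is the only point beyond a line.

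In the T cell, Kupffer cell and endothelial clusters, the Dnajc12 ratio was 1.05 (0.271 to 5.95), 0.361 (0.0775 to 1.42) and 1.61 (0.409 to 7.50), from 3 to 10 UMIs a library, so a difference of the size seen in hepatocytes was not detectable in the T cell and endothelial clusters at this depth. In the Kupffer cell cluster the interval ends below the hepatocyte ratio of 3.79. The 6 other genes had ratios from 0.424 to 0.623 in T cells, and Qdpr, Tat, Hpd, Hgd and Fah each had an interval below 1 there. Of the 7 genes, 6 passed 1.5 times lower in T cells, where 18.9% of all genes did, 4 in Kupffer cells (36.4%) and 5 in the endothelial cluster (34.5%); those shares count genes with at least 100 summed UMIs, which 5, 2 and 2 of the 7 genes had. The cluster called Kupffer cells also held stellate cell markers, at 1511 and 1596 CPM beside 1277 and 2088 CPM of Kupffer cell markers. Alb, the hepatocyte gene for albumin, was lower in the same clusters, with ratios of 0.482, 0.496 and 0.672. The summed hepatocyte markers there were 27794 against 61958 CPM in T cells, 41246 against 93129 CPM in Kupffer cells and 56035 against 91817 CPM in the endothelial cluster. Set against albumin, Gch1 had 3.60 UMIs per 1000 Alb UMIs in T cells labelled DKO and 3.49 in the hepatocytes of that library, while Tat had 21.3 and 39.9 and Dnajc12 1.13 and 3.91. The part of hepatocyte RNA in these values was not tested.

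The libraries labelled WT differed in more of these genes. On the ApoE background, Dnajc12 was lower than in the WT library without a named background, 39.0 against 79.9 CPM, a ratio of 0.488 (0.377 to 0.638). All 4 enzymes of tyrosine breakdown were higher: Tat at 1299 against 436 CPM (2.98, interval 2.69 to 3.30), Hpd at 1463 against 817 CPM (1.79, 1.66 to 1.93), Hgd at 404.2 against 235.4 CPM (1.72, 1.49 to 1.98) and Fah at 384.1 against 240.9 CPM (1.59, 1.39 to 1.84). Thus 4 of the 7 genes were at least 1.5 times higher and 1 lower, where 14.9% and 16.8% of all 6875 genes with at least 100 summed UMIs were. Between the same hepatocyte sums, Alb had a ratio of 1.28 and Cyp2e1 one of 5.71, while Glul had 0.839 and Cyp2f2 0.798. Whether the enzymes moved with such hepatocyte genes was not tested. Gch1 (0.881, 0.736 to 1.06) and Qdpr (0.864, 0.789 to 0.947) had ratios below 1 that turned to 1.03 and 1.01 under TMM scaling. These libraries differ in the number of cells, the deposited table, the cell makeup and the named background, and these cannot be told apart. The hepatocyte sum of the library without a named background also held more Kupffer cell and cholangiocyte marker UMIs, given above, and their part was not tested. With every cell that the authors call a hepatocyte, the Dnajc12 ratio was 0.733, no longer past 1.5 times.

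Some other amino acid genes also differed between the libraries labelled WT. Of 28 listed genes of the breakdown of other amino acids, 27 had at least 100 UMIs, 9 were at least 1.5 times higher on the ApoE background and 1 lower, where 14.9% and 16.8% of all genes were. Their median log2 ratio was 0.26, against -0.03 for all genes. Tdo2, which starts tryptophan breakdown, was at 1372 against 653 CPM (2.10), Hal, which starts that of histidine, at 401 against 185 CPM (2.16), and Aass, an enzyme of lysine breakdown, at 548 against 260 CPM (2.11). Bhmt, which remethylates homocysteine, was the lower one, at 556 against 1482 CPM (0.375). Of the cofactor genes, Pcbd1 (0.562) and Spr (0.586) were past 1.5 times lower. Slc16a10, an aromatic amino acid transporter, was at 270 against 73.3 CPM (3.69). Of the listed genes of tyrosine breakdown, Got1 had a ratio of 1.95 and Fahd1 one of 0.644 (0.502 to 0.837). Between the ApoE libraries no gene of these lists with at least 100 UMIs passed 1.5 times. Bhmt had a ratio of 1.48 (1.43 to 1.53) and Afmid one of 1.41, while Slc43a1, a transporter of large neutral amino acids, had one of 1.497 (0.986 to 2.30) from 61 and 39 UMIs.

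No other gene of the DNAJC family and no listed HSP70 partner with at least 100 UMIs had a ratio past 1.5 times between the ApoE libraries. Of 25 other DNAJC genes, 20 had at least 100 UMIs, 14 of them above 1 and 6 below, with a median log2 ratio of 0.09. Dnajc22 (1.46, 1.21 to 1.77) and Dnajc19 (1.44, 1.34 to 1.55), an import motor subunit of mitochondria, were the highest of the 4 named by the rule, and Dnajc15 was at 0.802 (0.720 to 0.893). Hspa8, the constitutive cytosolic HSP70, was at 745.6 and 747.8 CPM, a ratio of 0.997 (0.964 to 1.03), and Hspa5, the HSP70 of the endoplasmic reticulum, had a ratio of 1.13 (1.08 to 1.19).

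Across 19 units (a hepatocyte cluster in 1 ApoE library, with at least 50 cells), log2 levels after adding 20 CPM were compared with those of Dnajc12. Units share libraries, depth and mitochondrial share, so these correlations are descriptions. The 8 genes most like Dnajc12 among 8282 were Pdia4 (Pearson r 0.88), Oaf, Ndst1, Nfix, Brd3, Mat1a, Sdc4 and Paqr9 (r 0.84). Pdia4, a protein disulfide isomerase, was at 129 and 72.6 CPM in cluster 5 of the libraries labelled DKO and WT, and its ratio over all hepatocytes was 1.76 (1.59 to 1.96). The other 7 had ratios from 1.28 to 1.42. Dnajc12 was chosen for differing between these libraries and the units pool them, so genes ranked as like it tend to share its direction. Nothing is read from these ratios. Among the 6 genes of the pathway, Dnajc12 had r = 0.49 with Hpd and 0.48 with Tat, but -0.67 with Hgd and -0.85 with Fah. With Qdpr the r was -0.17 and with Gch1 it was -0.30. The sign follows the gene's ratio between the libraries for Hpd and Tat, above 1, and for Hgd, Fah and Qdpr, below 1. For Gch1 it does not, as that ratio was 1.01 (0.933 to 1.10). How far these r hold within a library was not tested. With Glul the r was 0.10, although the cluster led by Glul had the highest Dnajc12 level in both libraries, and with Cyp2f2 it was -0.54. The genes most like the mean of the other 6 were Mrpl40 (r 0.90), Snu13, Gtf3c6 and Wdr83os, whose ratios over all hepatocytes were 0.694, 0.800, 0.758 and 0.558.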

How the data were processed

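Single-cell UMIs of 3 mouse liver libraries were used, 1 per group; the aorta tables were not used here. The authors deposited raw counts of UMIs per gene and cell with a table of cell metadata. The submitters' processing notes name Cell Ranger 7.1.0 and the build mm10. The authors' filters on cells and their treatment of doublets are not given in these sources. In the deposited counts, cells had 500 to 10915 UMIs, 202 to 2499 genes and up to 20.0% mitochondrial UMIs, so the deepest cells are missing. The ApoE libraries share 4 cell barcodes. Library totals were 10999072 (DKO), 9497896 (WT, ApoE) and 1883798 UMIs (WT). Cell types and clusters were the authors'; 27 other metadata columns per table were not used.

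A cluster the authors call hepatocytes entered the sum if its 10 leading genes (at least 200 CPM and 2 times the other clusters after adding 20 CPM) held no more markers of another class than of hepatocytes. This kept clusters 0 to 8 and 13 of the ApoE table and left out 14 (erythroid genes), 16 (pancreatic acinar genes) and 18 (cholangiocyte genes). Of the other table it kept clusters 3, 4, 8 and 12, and left out 0 (Spp1, 244 cells) and 2 (haemoglobin genes, 111 cells). CPM have exact Poisson intervals and ratios exact conditional binomial intervals, checked on simulated data. With 1 library a group there is no test. The members and lists were chosen with earlier results of these data known. All 7 genes are described; of each list, up to 4 genes with at least 100 UMIs whose ratio interval lay farthest from 1 are named, and the 8 and 4 genes most like Dnajc12 and the other 6. A cluster was compared where each library had at least 50 of its cells. Python 3.11.15, scipy 1.17.1 and edgeR 4.0.16 (TMM factors only) were used.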

Additional observations from a re-analysis of the deposited data

Results flagged for a closer look

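Across the 12 clusters compared between the ApoE libraries, 3 genes had a ratio whose counting interval lay above 1 in at least 1 cluster and below 1 in another. The differences between clusters were not tested, since each library is a single sample. Qdpr had a DKO over WT ratio of 1.25 in hepatocyte cluster 1 but 0.692 in hepatocyte cluster 8 and 0.424 in the T cell cluster. Tat had a ratio of 1.43 in hepatocyte cluster 0, 0.854 in hepatocyte cluster 3 and 0.537 in the T cell cluster. Hpd had a ratio of 1.28 in hepatocyte cluster 1 and 0.584 in the T cell cluster, with no hepatocyte cluster whose interval lay below 1. Beside the T cell values, Alb had a ratio of 0.482 in the same cluster, and its part in them was not tested.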

How the results depend on the processing

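The Dnajc12 ratio of the libraries labelled DKO and WT on the ApoE background stayed above 1.5 in all 12 alternatives. It was within its interval in 7 of them, and 2.94 with clusters 5, 7 and 8 alone. Restricted to cells with a mitochondrial share below 1%, of 1 to 5% and of 5% or more, it was 1.99, 4.44 and 3.17, and 3.00 in cells with at least 3000 UMIs; these restrictions, in both comparisons, the unthinned shares and 3 alternatives by cluster, in each of which Dnajc12 passed 1.5 times in 9 of 9 clusters, were chosen after seeing the data. The cause of these shifts was not tested. Exactly 1 of the 7 genes passed 1.5 times throughout. Of 67 genes of the 6 lists (tyrosine breakdown, cofactor, transport, other amino acids, DNAJC and HSP70), those past 1.5 times were 0, but 1 under TMM scaling, 2 under median-of-ratios scaling, 4 with totals without mitochondrial, haemoglobin, Gm42418 and AY036118 UMIs, 5 with every cell weighted alike and 1 in cells with at least 500 genes and 1000 UMIs. They were 3 in clusters 5, 7 and 8, 4 by the geometric mean of within-cluster ratios, 11, 8 and 2 in the mitochondrial ranges, and 2 in deep cells. The share of all genes past 1.5 times was 24.6% by the geometric mean and 33.4%, 21.4% and 5.07% in the mitochondrial ranges, against 4.97%.

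Between the libraries labelled WT, the Dnajc12 ratio stayed below 1 in all 9 alternatives; it was 0.733 with every cell the authors call a hepatocyte and 0.687 below 1% mitochondrial share, where 3 of the 7 genes rather than 5 passed 1.5 times. TMM and median-of-ratios scaling moved the median log2 ratio of all genes from -0.03 to 0.20 and 0.21 and the higher share of calls from 46.9% to 72.6% and 73.3%. In the ApoE comparison the totals without those transcripts moved that share from 45.9% to 68.8%, and the geometric mean to 15.4%. The share of all genes past the threshold was 31.7% and 59.7% in the ApoE and WT comparisons with a minimum of 1 UMI, and 0.906% and 12.1% at a fold of 2. Thinned to 2000 UMIs, 24.9% of hepatocytes labelled DKO and 8.34% of those labelled WT on the ApoE background had a Dnajc12 UMI; without thinning these were 26.1% and 7.70%, and 18.8% in the third library. No paired analysis was possible because each group is 1 library and no test was run.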
